A study of Mus musculus with 9 samples.

Results

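The age comparison of this series sets cochleae of 15-month-old control mice (MC, here the older controls) against cochleae of 4-month-old control mice (YC, the young controls). It takes 6 of the 9 arrays of the series, chosen by their sample titles: 3 of older and 3 of young controls. All were male C57BL/6 mice, housed singly under specific pathogen-free conditions, and both control groups ate 84 kcal of control diet per week. Each array carried RNA pooled from 4 cochleae of 2 mice, so a group covers few animals. The remaining 3 arrays held 15-month-old mice fed 62 kcal per week from 2 months of age (CR). They share the normalisation and the estimate of spread with the controls but are not part of the contrast. The question was how the transcriptome of the cochlea differs between young adulthood and middle age on a normal diet.

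The cochlea turns sound into nerve impulses. Its hair cells release glutamate onto spiral ganglion neurons, its stria vascularis secretes the potassium-rich endolymph that drives the hair cell current, and fibrocytes and supporting cells return potassium through gap junctions. C57BL/6 mice lose hearing early in adult life, in part through a Cdh23 allele that weakens the tip links of the hair bundle, and hair cells and neurons are lost from the high-frequency base first. Age-related hearing loss is also known for changes in mitochondrial energy supply and in oxidative defence.

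The RNA carried the marks of cochlear tissue. Of 20 genes that define the cochlea or its cells, 17 were in the table and 12 passed the signal filter, which dropped the dimmest 40% of probe sets by their mean over the arrays. The fibrocyte and matrix genes Coch and Otos were bright. On the log2(signal + 16) scale used for all levels here, Coch was at 14.75, 14.61 and 14.40 in older controls 1 to 3 and at 14.86, 14.62 and 14.05 in young controls 1 to 3. Otos was at 14.63, 14.25 and 14.83 against 15.03, 14.58 and 14.08. The groups overlapped for both genes, and hair cell genes were thinly covered, with 16 of 40 past the filter and Cdh23 not among them. In whole tissue, fewer cells of a type and less RNA per cell cannot be told apart.

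No gene passed the test between 4 and 15 months. With limma and Benjamini-Hochberg adjustment, 0 of 27022 probe sets (0%) had an adjusted p under 0.05, and the smallest adjusted p was 0.927. At an unadjusted p under 0.05 there were 367 probe sets higher (1.36%) and 548 lower (2.03%) in the older controls. With arrays centred on their median these counts were 158 and 550, and the median change of all genes was -0.18 in place of 0.03. In the table as deposited the counts were 374 and 333. The direction depended on brightness in the quantile-normalised fit. The dimmest 9008 probe sets held 141 higher and 280 lower, and the brightest 9007 held 111 higher and 79 lower. The filter asked for a mean log2 signal of 8.95 over the 9 arrays. The group with the lower mean was under that level in 95 of the 367 higher probe sets (25.9%). Among the 548 lower ones it was so in 262 (47.8%), against 11.2% of all probe sets tested. The 915 probe sets of both directions in the quantile-normalised fit made 3.39% of those tested, and the bins of p above 0.15 each held between 4.93% and 5.44%. All 3 older arrays were above all 3 young arrays for 2.97% of probe sets and below them for 2.92%, together 5.88%. The plot of change against p shows this distribution.

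**Figure D1:**
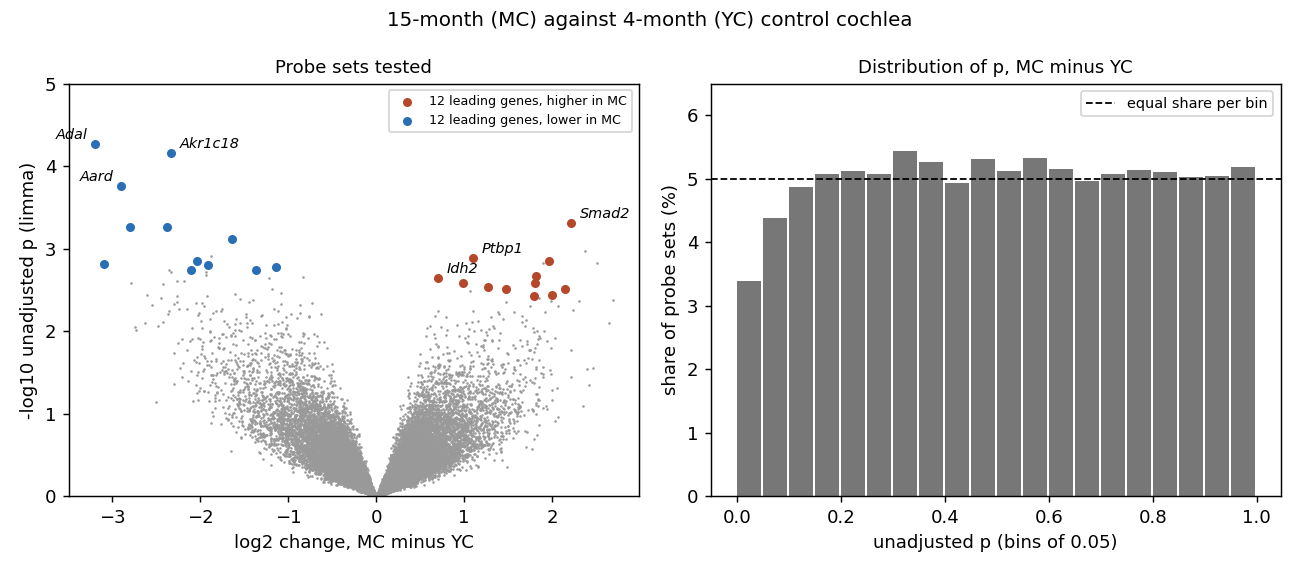
Left, each probe set by its log2 change (MC minus YC) and the −log10 of its unadjusted limma p, with the 12 leading genes of each direction coloured. Right, the share of probe sets in each bin of p, with a dashed line at an equal share per bin. The lowest bin held 3.39% of the probe sets, and the bins above 0.15 held 4.93% to 5.44%.

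The spread among the young controls was as wide as the distance between the ages. Array pairs within the young group correlated at r = 0.678 to 0.832, pairs of older controls at 0.799 to 0.839, and pairs across the ages at 0.738 to 0.861. The median SD of a probe set was 0.569 among young and 0.442 among older controls (n = 3 each). Among the CR arrays it was 0.21. The SE, p-values and intervals in this report pool all 3 groups. They rest in part on that smaller spread, which lies outside the groups compared. Young control 1 had a median deposited signal of 526.8, while the other 5 control arrays lay between 842.4 and 1103.9. Without young control 1 the counts at an unadjusted p under 0.05 were 948 higher and 594 lower, and without young control 2 they were 1233 and 1463. Without young control 3 they were 626 and 472, and without older control 2 they were 429 and 950. The adjusted p called 0 in each of these fits. The part of these array differences in the results below was not tested.

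How large a difference the data leave room for depended on the gene. For 5440 of the 13702 named genes measured (39.7%, each by its brightest probe set), the 95% interval of the log2 change lay within 1 unit either side of 0, which is a 2-fold change. Bright genes were bounded more closely: the median SE was 0.288 among the brightest 9007 probe sets and 0.582 among the dimmest 9008.

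Different probe sets for the same gene gave little agreement on direction. Of 3381 genes with 2 probe sets past the filter, 1748 had both changes of the same sign (51.7%), and the Pearson correlation across these genes was 0.048. Where both probe sets lay among those brightest 9007, 321 of 585 genes (54.9%) had the same sign. Probe sets of a gene share the same 6 arrays, and genes are not independent replicates. Probe sets can target different transcript ends or isoforms, a point the annotation used here does not resolve.

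**Figure D2:**
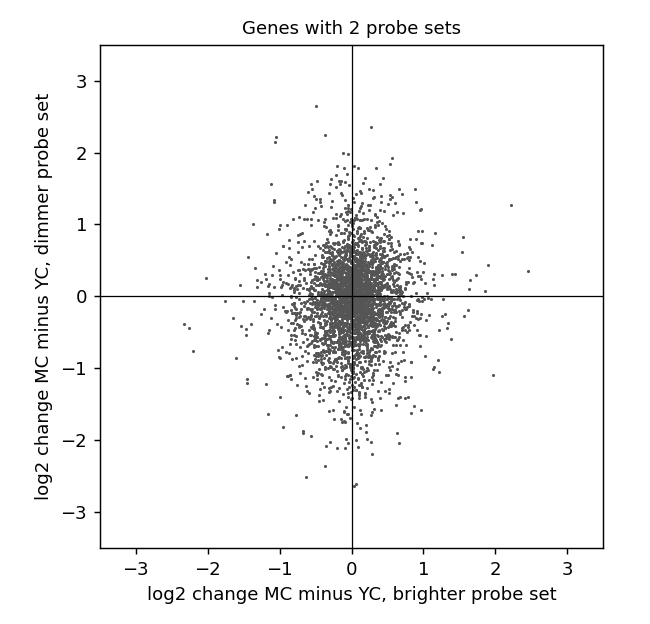
Each point is a gene with 2 probe sets past the filter, placed by the log2 change (MC minus YC) of its brighter (x) and dimmer (y) probe set. The cloud has no visible diagonal, and 1748 of 3381 genes lie in the quadrants of equal sign.

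The genes described next are the 12 of each direction with the smallest p among those without overlap between the ages, so that their separation comes from how they were chosen. All had an adjusted p of 0.927 or more. On the higher side, Smad2, which carries TGF-beta and activin signals to the nucleus, was at 10.71, 10.90 and 10.91 in older controls 1 to 3 and at 9.60, 8.38 and 7.89 in young controls 1 to 3. The log2 change was 2.22 ± 0.45 (SE). All 3 older arrays sat close together and the young ones ranged over more than a unit. The other Smad2 probe set, which was brighter, had a change of -1.05. Ptbp1, which encodes an RNA-binding repressor of exon inclusion, was at 12.97, 13.03 and 13.25 against 11.57, 11.97 and 12.41, a change of 1.10 ± 0.26. Its other probe sets had changes of -0.27 and -0.21.

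Idh2, the mitochondrial isocitrate dehydrogenase that supplies NADPH for glutathione and thioredoxin reduction, had the smallest change of these 12. It was at 13.78, 13.57 and 13.57 in older and at 12.85, 13 and 12.95 in young controls, a change of 0.70 ± 0.18 with a 95% interval from 0.31 to 1.09. Its other probe set had a change of -0.43. Srxn1, the sulfiredoxin that repairs over-oxidised peroxiredoxins, stood at 10.53, 10.70 and 10.41 against 9.07, 8.74 and 8.45 (1.80 ± 0.46), with 1 of its 3 other probe sets in the same direction. That probe set was the brightest of Srxn1 and had a change of 0.21. Ern1, the IRE1 kinase and endonuclease that senses unfolded protein in the endoplasmic reticulum, was at 12.10, 10.54 and 10.78 against 8.98, 9.49 and 9.50 (1.82 ± 0.45). Older control 1 lay well above the other older arrays there. Both other probe sets of Ern1 had negative changes, -0.05 by the brightest and -0.70.

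Egln3, a prolyl hydroxylase that marks hypoxia-inducible factor for degradation, was at 11.84, 12.20 and 12.27 against 10.86, 11.26 and 11.24 (0.98 ± 0.25). The cerebellar and neural crest transcription factor gene Zic5 had a change of 1.96 ± 0.46, the Wnt ligand gene Wnt10a of 1.48 ± 0.39 and the mitotic kinase gene Pkmyt1, an inhibitor of entry into mitosis, of 2.15 ± 0.57. The other probe sets of Zic5 and Pkmyt1 had changes of -1.10 and -1.07. Ttll5, which adds glutamate chains to tubulin, stood at 1.99 ± 0.54, Kank2, an adaptor between integrin adhesions and microtubules, at 1.79 ± 0.49 and the transcript 4930542D17Rik at 1.27 ± 0.33. The other probe sets of Ttll5 had changes of -0.62 and -0.01, and that of Kank2 had 0.091. For Egln3 the other had -0.01.

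On the lower side, Adal, an adenosine deaminase-like gene, had the largest change and the smallest p. It was at 6.72, 7.17 and 7.10 in older controls and at 9.96, 10.88 and 9.74 in young controls, a log2 change of -3.20 ± 0.50. Akr1c18, which encodes the 20-alpha-hydroxysteroid dehydrogenase that inactivates progesterone, was at 8.06, 8.47 and 8.21 against 10.83, 10.15 and 10.75 (-2.33 ± 0.37). The older values of both genes were dim, under the mean log2 signal of 8.95 that the filter asked for. Aard was at 7.06, 7.15 and 8.92 against 10.81, 10.60 and 10.42 (-2.90 ± 0.52). Cklf, a chemokine-like factor gene, was at 9.60, 7.03 and 8.46 against 11.51, 11.11 and 10.86 (-2.80 ± 0.58). Its brightest probe set went the other way, at 11.30, 11.16 and 11.34 against 10.71, 10.69 and 10.68 (0.57 ± 0.28), also without overlap.

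In 2 of the lower genes both group means were above the filter level of 8.95. Crls1, the synthase of the mitochondrial lipid cardiolipin, was at 9.97, 9.87 and 9.77 against 11.23, 11.16 and 10.66 (-1.14 ± 0.28). A second Crls1 probe set had a change of -0.85. Map2k5, the kinase upstream of ERK5, stood at 8.88, 9.52 and 9.84 against 10.73, 10.92 and 10.70 (-1.37 ± 0.33). Gimap4, a GTPase gene of lymphocytes, had a change of -2.11 ± 0.51, and Nup188, a nuclear pore subunit, one of -1.91 ± 0.46. Tti2, a partner of PI3K-related kinases, stood at -2.38 ± 0.49, Ubxn2a, a p97 cofactor, at -1.64 ± 0.35, the microtubule-associated Eml5 at -3.09 ± 0.73 and the zinc finger gene Zfp40 at -2.03 ± 0.48. At least 1 other probe set had a change above 0 for Tti2 (0.18), Ubxn2a (0.14), Eml5 (0.51) and Map2k5 (0.24).

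Dim signal was common among these genes. The group with the lower mean was under the filter level of 8.95 in 10 of the 12 lower and 6 of the 12 higher genes, against 11.2% of all probe sets tested. Of the 24 genes, 18 had more than 1 probe set past the filter, and in 4 of these all probe sets had the same sign.

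**Figure D3:**
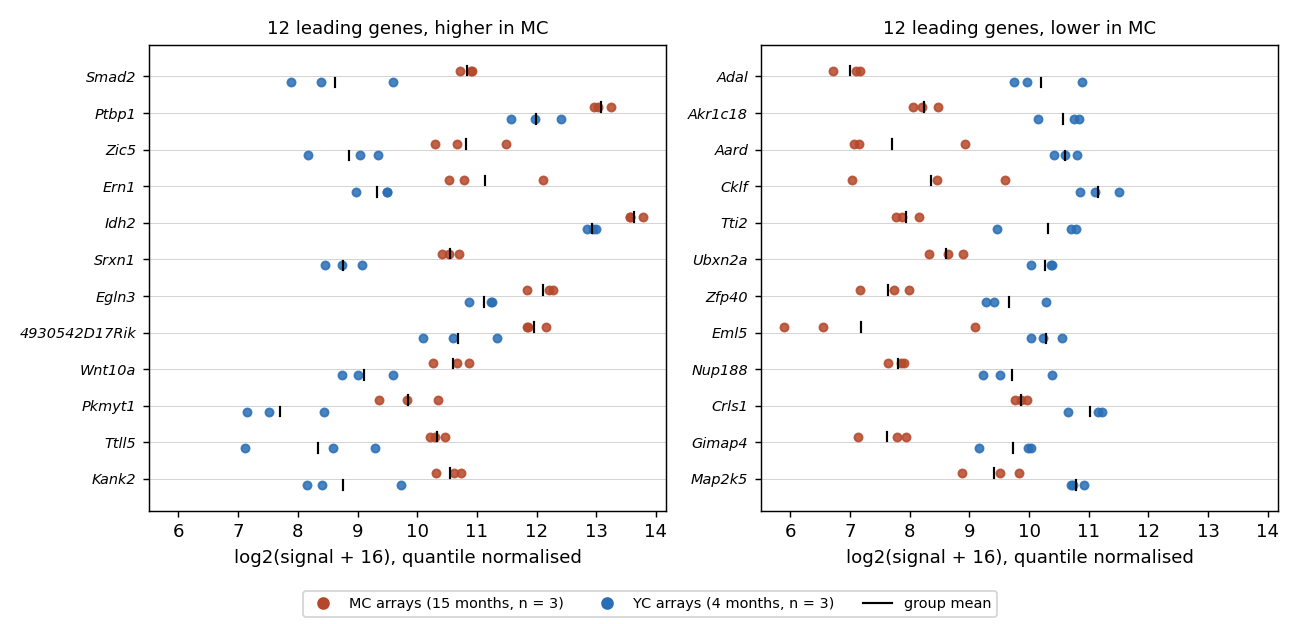
Levels of the 24 leading genes on each control array (x, log2(signal + 16) after quantile normalisation), with bars at group means of 3 arrays. The groups are separate by the way the genes were chosen, and many lower genes have older values under 8.95.

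Agreement between probe sets was asked for next. Among 5463 genes with at least 2 probe sets past the filter, 6 had each of these without overlap in the same direction, 5 lower and 1 higher. All 6 had 2 probe sets. Over all probe sets tested, 2.97% were without overlap and higher and 2.92% without overlap and lower. Whether 6 genes are more than unrelated probe sets would give was not tested. The agreement of their probe sets is therefore not taken as support for a change with age. Zfp830 and Hnrnpd also have probe sets under the filter, which were not counted. Inhbb, the beta B subunit of activin and inhibin, was at 9.75, 10.07 and 8.96 in older and at 10.69, 10.47 and 10.26 in young controls by its brighter probe set (-0.88 ± 0.38), and had a change of -1.11 ± 0.48 by the other. Neurod1, a transcription factor that spiral ganglion neurons and cerebellar granule cells need to develop, was at 9.61, 10.47 and 10.44 against 11.06, 10.65 and 10.77 (-0.65 ± 0.41) and at -1.13 ± 0.43 by the second. Hnrnpd, which encodes the AU-rich element binding protein AUF1, was at 12.19, 12.01 and 12.28 against 12.64, 12.81 and 12.48 (-0.48 ± 0.21), with a second change of -0.61 ± 0.32. The cilium gene Fam161a (-1.24 ± 0.50 and -0.63 ± 0.34) and Il1f5, the antagonist of the interleukin 36 receptor (-0.63 ± 0.35 and -0.67 ± 0.36), completed the lower genes. Zfp830, a zinc finger gene, was the higher gene (0.41 ± 0.28 and 1.39 ± 0.41).

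Gene lists of cochlear cell types and pathways were then described by their counts. Over 39 lists with 1068 different genes measured, 17 genes had an unadjusted p under 0.05 and higher values at 15 months (1.59%) and 19 had lower values (1.78%). Over all 13702 genes these shares were 1.31% and 1.64%, together 2.95%, so the listed genes were close to the background. None was called. The ages were without overlap in 2.96% of all genes in the higher and 2.61% in the lower direction. Over all genes 53.4% were higher and the median change was 0.03, which is the value each list median below is to be read against. Each gene is represented by its brightest probe set, and a range beside a list median gives its lowest and highest value with 1 of the 6 control arrays left out. In 27 of the 39 lists the median turned sign in at least 1 of these fits and in 12 it did not. The lowest median came without young control 2 in 18 lists, and the highest without young control 1 in 14.

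**Figure D4:**
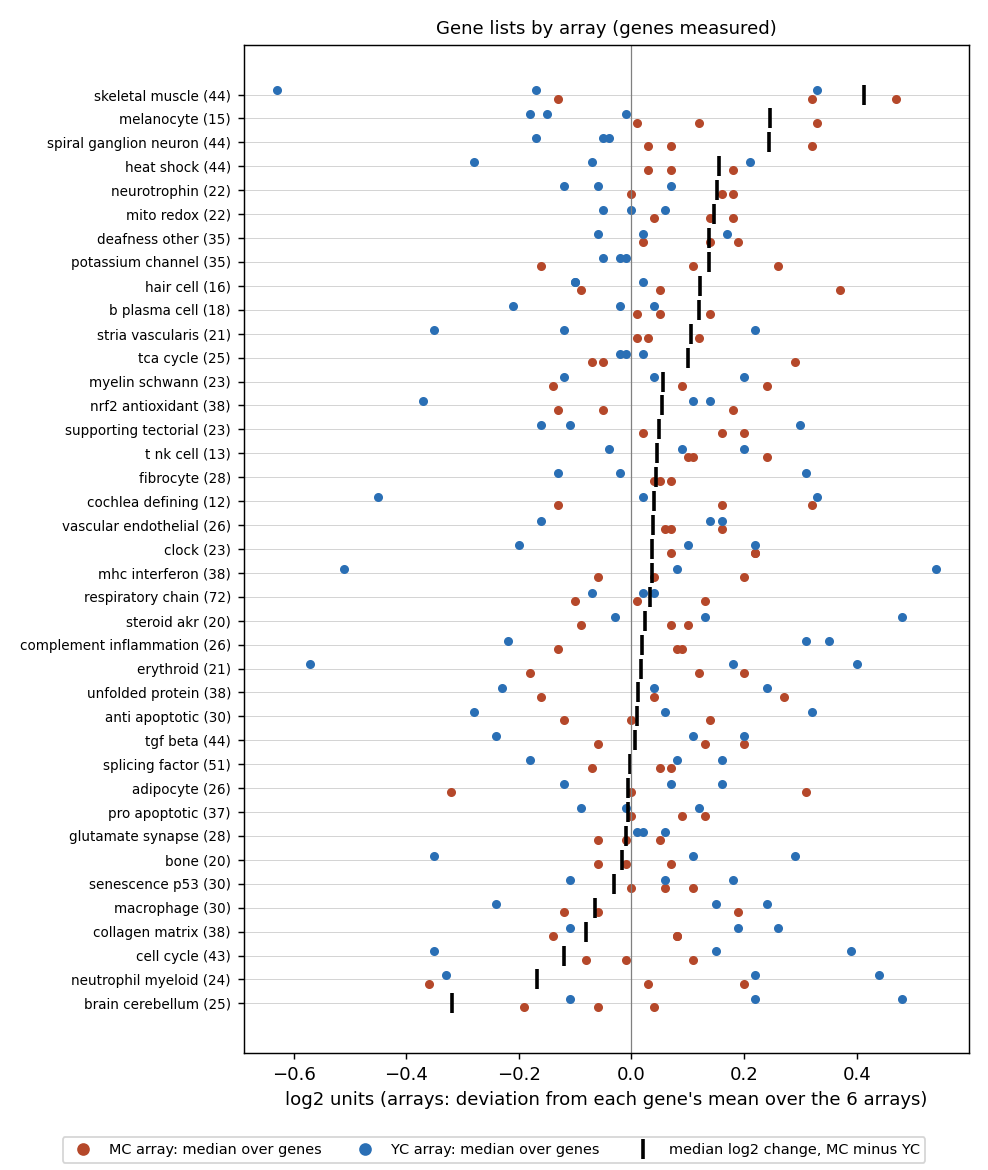
Median over the genes of each list on each control array (dots, deviation from each gene's mean over the 6 arrays, log2 units) and the median log2 change (bars, MC minus YC), with the number of genes measured. The arrays of the ages separate in the neuron and melanocyte lists as drawn, without the all-gene median of each array taken off. Young arrays spread widely in many others.

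In 28 of the 39 lists the young arrays had a larger SD than the older ones. Young control 2 was the lowest of the 6 arrays in 22 lists, and young control 1 the highest in 15. The arrays of both ages were apart in 2 lists, the spiral ganglion neuron and the melanocyte list. These array medians are not set against all genes. The all-gene medians were 0.06, 0.07 and 0.01 in older controls and 0.12, -0.09 and 0.06 in young controls.

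Hair cell genes showed no common shift at 15 months. Of 16 measured, 10 were higher with a median of 0.12 (range -0.0069 to 0.18), and 0 had an unadjusted p under 0.05. Myo7a, a myosin of the hair bundle, was at 9.87, 10.47 and 8.98 against 10.88, 10.51 and 10.35 (-0.81 ± 0.40), lower on each older array than on young control 1 but overlapping with young control 3. Among supporting cell and tectorial membrane genes 13 of 23 were higher (median 0.05, range -0.071 to 0.15). Slc1a3, the glutamate transporter of supporting cells and glia that clears glutamate around the hair cell synapse, was at 11.08, 11.03 and 11.51 against 11.78, 12.18 and 11.97, without overlap (-0.77 ± 0.23). The fatty acid binding protein gene Fabp7, of glia and supporting cells, went the other way with overlap (0.99 ± 0.44).

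In the lateral wall, 17 of 28 fibrocyte genes (median 0.04, range -0.068 to 0.18) and 14 of 21 genes of the stria vascularis (median 0.11, range 0.028 to 0.21) were higher, none with an unadjusted p under 0.05. The intervals bounded several genes of ion transport, of gap junctions and of fibrocytes and matrix. The connexin gene Gjb2 had a change of 0.24 with a 95% interval from -0.40 to 0.88, and Gjb6, its partner in cochlear gap junctions, 0.24 with one from -0.32 to 0.81. For Coch the interval was -0.50 to 0.64 and for Otos -0.55 to 0.57. For Slc26a4, the anion exchanger pendrin, it was -0.69 to 0.71. With median-centred arrays the changes of Gjb2, Gjb6, Coch, Otos and Slc26a4 were below 0. Kcnj10, the potassium channel of strial intermediate cells that sets the endocochlear potential, was at 9.41, 9.31 and 9.28 in older controls and at 10.95, 9.28 and 9.82 in young controls. The older arrays were alike and young control 1 stood apart, and the change of -0.69 had an interval from -1.62 to 0.25.

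**Figure D5:**
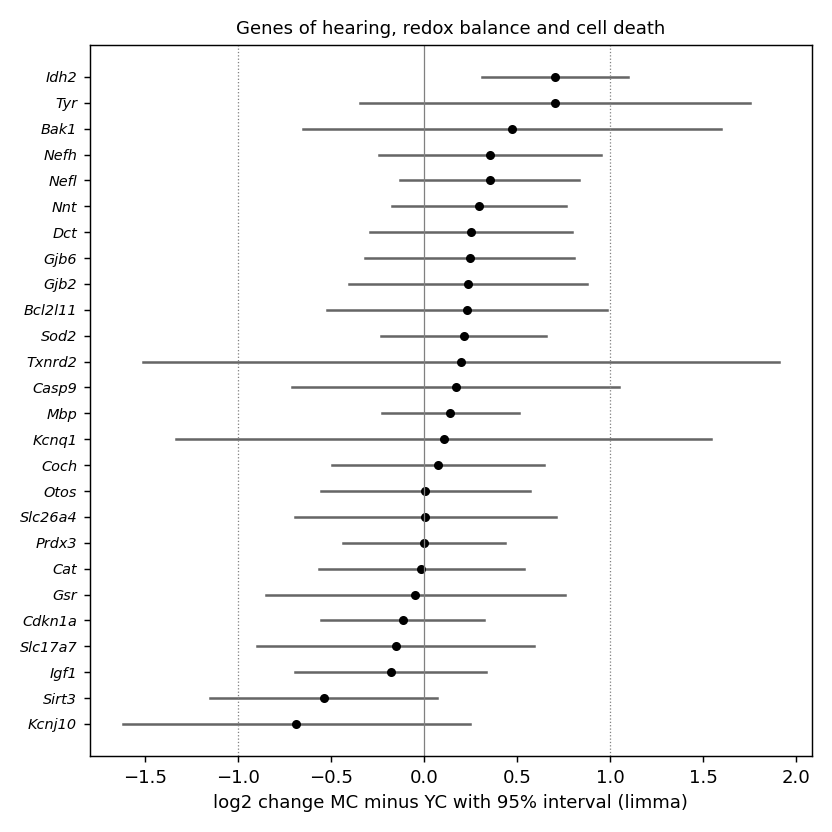
Log2 change MC minus YC (points) with its 95% limma interval (lines) for 26 genes of hearing, neurons, redox balance and cell death; dotted lines mark a 2-fold change. The interval of Idh2 lies above 0 and the other 25 include 0.

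Melanocyte genes, which the strial intermediate cells also use, had a median of 0.25 (range 0.11 to 0.29), and 11 of 15 were higher. The list median of each older array (0.01, 0.33 and 0.12) lay above that of each young array (-0.18, -0.01 and -0.15). This did not hold against all genes, whose median was 0.06 on older control 1 and -0.09 on young control 2. Older control 1 was thus below its all-gene median and young control 2 above its own. In this list 0 genes had an unadjusted p under 0.05. The list median was lowest without older control 2. Mitf, the master regulator of the lineage, was at 10.78, 11.21 and 11.30 against 10.97, 8.93 and 10.52 (0.95 ± 0.46), where young control 2 was far below the rest. Of 35 other deafness genes 23 were higher (median 0.14, range 0.012 to 0.17), and Gsdme, which encodes the pore-forming protein gasdermin E, was lower at -0.91 ± 0.37 with overlap. Of 35 potassium channel genes 23 were higher (median 0.14, range -0.0064 to 0.18), none with an unadjusted p under 0.05. Without young control 2 the potassium channel median was -0.0064, and without older control 2 it was 0.0069.

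Genes of the spiral ganglion neuron list had mostly higher values at 15 months, in 70.5% of cases against 53.4% of all genes. Of 44 spiral ganglion neuron genes, 31 were higher with a median of 0.24 (range 0.15 to 0.30), and 2 had an unadjusted p under 0.05 in that direction. The other 13 were lower, with changes down to -0.58. Without older control 2 the median was 0.15 and no gene had an unadjusted p under 0.05. Cplx1, complexin 1 of the synaptic release machinery, was at 15.55, 15.48 and 15.37 against 14.97, 15.11 and 14.81, without overlap (0.50 ± 0.19). Prph, the intermediate filament of type II spiral ganglion neurons, was at 12.29, 13.20 and 12.97 against 12.04, 11.09 and 12.42 (0.97 ± 0.35), with young control 3 above older control 1. The other Prph probe set had a change of -1.58, and those of Cplx1 had -0.27 and 0.43. The neurofilament genes Nefl (0.35, interval -0.13 to 0.83) and Nefh (0.35, interval -0.24 to 0.95) gave similar changes.

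At the synapse and in the sheath there was no common direction. Among 28 glutamate receptor and synapse genes 13 were higher (median -0.01, range -0.071 to 0.044) and 2 had an unadjusted p under 0.05, both lower: Slc1a3, above, and the AMPA receptor subunit gene Gria4, at 10.91, 10.82 and 10.74 against 11.53, 11.55 and 11.35 (-0.65 ± 0.27). The groups did not overlap for Gria4, and its other probe set had a change of 0.37. Of 23 myelin and Schwann cell genes 14 were higher (median 0.06, range -0.024 to 0.23). Drp2, a dystrophin-related protein of the Schwann cell surface, was at 12.25, 12.42 and 12.32 against 11.52, 11.13 and 11.95 (0.80 ± 0.26), with a change of -0.10 by its other probe set. Fa2h, which hydroxylates myelin lipids, had a change of -0.52 ± 0.22 with overlap. Mbp, the myelin basic protein gene, was bounded between -0.23 and 0.51 by its brightest probe set. Its 7 other probe sets had changes from -0.70 to 0.31. Of 22 neurotrophic factor and receptor genes 17 were higher (median 0.15, range 0.07 to 0.21), and the mannose 6-phosphate receptor gene Igf2r, which clears IGF2, had a change of 0.55 ± 0.24 without overlap.

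The genes of oxidative phosphorylation were the best bounded group. Of 72 nuclear-encoded respiratory chain and ATP synthase genes 39 were higher and 33 lower, with a median of 0.03 (range -0.053 to 0.10) and 0 genes at an unadjusted p under 0.05. The 95% intervals of 70 of the 72 excluded a 2-fold change in either direction, against 39.7% of all genes. Bright genes were bounded more closely throughout, and genes of like signal were not compared. Cox4i1, a core subunit of cytochrome oxidase, had a change of 0.07 with an interval from -0.23 to 0.37. The changes with the smallest p were those of Uqcrc1, a core protein of complex III (0.29 ± 0.17), and of the complex I gene Ndufb5 (0.38 ± 0.23).

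Among 25 genes of the citric acid cycle 18 were higher (median 0.10, range 0.0078 to 0.24). The median was 0.0078 without older control 1. Idh2, above, was the gene with an unadjusted p under 0.05, and Aco1, the cytosolic aconitase and iron sensor, had a change of -0.50 ± 0.23 without overlap and others of -0.25 and 0.04 by 2 more probe sets. Of 22 genes of mitochondrial redox defence 13 were higher (median 0.15, range 0.066 to 0.20), and Txn2, mitochondrial thioredoxin, was at 12.99, 12.89 and 13.40 against 12.32, 12.76 and 12.53 (0.56 ± 0.22), without overlap. Sirt3, the mitochondrial deacetylase that activates IDH2, was at 10.35, 10.67 and 11.19 against 11.27, 11.09 and 11.47. The groups overlapped, older control 3 lying above young control 2, and the change was -0.54 (interval -1.15 to 0.07). The superoxide dismutase gene Sod2 (interval -0.23 to 0.66), the peroxiredoxin gene Prdx3 (-0.44 to 0.43) and the catalase gene Cat (-0.56 to 0.53) were bounded within a 2-fold change by their brightest probe sets. The 3 other probe sets of Sod2 had changes from -0.02 to 0.85, and the other of Cat had 0.05. Of 38 cytosolic antioxidant and NRF2 target genes 22 were higher (median 0.05, range -0.1 to 0.13), with Nqo1, a quinone reductase, at 1.26 ± 0.56 with overlap.

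Of 44 heat shock and chaperone genes 30 were higher (median 0.16, range 0.01 to 0.24), and 2 had an unadjusted p under 0.05. Cryab, the small heat shock protein alpha-B-crystallin, was at 13.71, 13.86 and 13.52 against 12.78, 12.78 and 13.42 (0.70 ± 0.26). Hspa8, the constitutive HSC70 chaperone, was at 15.93, 16.11 and 16.14 against 15.86, 15.78 and 15.46 (0.36 ± 0.15). Neither overlapped between the ages, though young control 3 came close in Cryab and young control 1 in Hspa8. Other probe sets of Cryab had changes of -0.85 and 0.30, and the 3 others of Hspa8 lay between -1.39 and 0.37. Leaving out young control 2 gave a list median of 0.01, leaving out older control 2 gave 0.09 and leaving out young control 1 gave 0.245. Of 38 genes of the unfolded protein response 20 were higher (median 0.01, range -0.13 to 0.13).

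Cell death genes had no common direction. Of 37 pro-apoptotic genes 18 were higher (median -0.01, range -0.091 to 0.087), and of 30 anti-apoptotic genes 16 (median 0.01, range -0.12 to 0.13). Casp12, a caspase of the endoplasmic reticulum, had a change of -0.78 ± 0.33 with overlap. Hrk, a BH3-only gene of neurons, was at 10.03, 9.96 and 9.73 against 9.32, 9.05 and 9.38 (0.66 ± 0.37), while its other probe set had a change of -2.04. Bak1, which permeabilises mitochondria during apoptosis, was at 9.86, 10.02 and 10.02 against 10.29, 8.31 and 9.88, and its interval ran from -0.65 to 1.60. Among 30 genes of p53 targets and cell cycle inhibitors 13 were higher (median -0.03, range -0.17 to 0.016). The inhibitor gene Cdkn2b had a change of -1.16 ± 0.52 with overlap, and the p53 target gene Cdkn1a was bounded between -0.55 and 0.32.

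Lists of blood and immune cells varied more among the young arrays than between the ages. Neutrophil and myeloid genes were lower in 18 of 24 cases (median -0.17, range -0.38 to -0.07), with array medians of 0.03, 0.20 and -0.36 in older and 0.44, -0.33 and 0.22 in young controls. The median was -0.07 without young control 1, -0.09 without older or young control 3 and -0.38 without young control 2. Of 30 macrophage genes 20 were lower (median -0.06, range -0.21 to 0.037), where Laptm5, a lysosomal protein of blood cells, was at 12.31, 12.31 and 11.88 against 12.99, 12.53 and 12.95 (-0.66 ± 0.22), without overlap. Antigen presentation and interferon genes were higher in 22 of 38 cases (median 0.04, range -0.31 to 0.27), with array medians from -0.51 in young control 2 to 0.54 in young control 1. Complement and inflammation genes were higher in 14 of 26 cases (median 0.02, range -0.32 to 0.20). Saa3, an acute phase protein gene, had a change of -2.14 ± 0.92, where young control 3 was at 13.90 and the other young arrays at 10.54 and 9.91. B cell genes (12 of 18 higher, range of the median 1e-04 to 0.19), T and NK cell genes (7 of 13, -0.27 to 0.17) and erythroid genes (11 of 21, -0.33 to 0.19) had no gene with an unadjusted p under 0.05.

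Among vessels, bone, matrix and dividing cells, 16 of 26 endothelial genes were higher (median 0.04, range -0.051 to 0.12), and the endothelial transcription factor gene Sox17 stood at -1.09 ± 0.39. Of 20 bone genes 10 were higher (median -0.02, range -0.20 to 0.046), with the bone sialoprotein gene Ibsp at -1.55 ± 0.59. Collagen and matrix genes were lower in 23 of 38 cases (median -0.08, range -0.20 to 0.065), with the collagen-cleaving protease gene Mmp14 at -0.70 ± 0.30. Of 43 cell cycle genes 27 were lower (median -0.12, range -0.27 to 0.052), none with an unadjusted p under 0.05. The groups overlapped for Sox17, Ibsp and Mmp14, and a second probe set of each had a change of the opposite sign (0.43, 0.15 and 0.48). The cell cycle median was above 0 without young control 1, and 4 lower genes had an unadjusted p under 0.05 without older control 2 or young control 2. The collagen and matrix median was above 0 without young control 3, and 5 lower genes had an unadjusted p under 0.05 without young control 2.

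Transcripts of tissue next to the cochlea also varied. Of 44 skeletal muscle genes 42 were higher in the older controls, with a median of 0.41 (range 0.14 to 0.66) and 3 genes at an unadjusted p under 0.05: Xirp1 (1.11 ± 0.36), Myh2 (1.22 ± 0.43) and Csrp3 (0.89 ± 0.32), the last named after its values were seen. The summed deposited signal of the list was between 1508650 and 2369849 in older controls and between 1038355 and 2341423 in young controls, so that the groups overlapped. Leaving out young control 1 gave a median of 0.14 and leaving out older control 3 one of 0.20. It was 0.66 with older control 2 or young control 3 left out. Brain genes were lower in 16 of 25 cases (median -0.32, range -0.47 to -0.30). At an unadjusted p under 0.05, 2 were lower and 1 was higher. The higher one was Zic5, above, with the smallest p of the list and no overlap (1.96 ± 0.46). Camk4, a calcium-dependent kinase of cerebellar granule cells and of lymphocytes, was at 8.27, 9.73 and 6.03 against 10.69, 10.39 and 10.38 (-2.48 ± 0.78), with changes of -0.18 and 0.16 by its other probe sets. Adipocyte genes had a median of -0.01 (range -0.17 to 0.12), with 12 of 26 higher. The part of these tissues in the other lists was not tested.

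Among signalling, clock and splicing genes, 23 of 44 genes of the TGF-beta and BMP pathway were higher (median 0.01, range -0.14 to 0.11). Acvr1, a type I receptor for BMPs and activins, lay between 9.45 and 10.65 in older controls and between 11 and 11.36 in young controls (-1.16 ± 0.33), and Smad6, an inhibitor of BMP signalling, at 9.75, 9.32 and 8.51 against 10.49, 9.78 and 10.39 (-1.03 ± 0.42). Neither overlapped between the ages, and a second Acvr1 probe set had a change of 0.14. Of 23 clock genes 13 were higher (median 0.04, range -0.095 to 0.18). Per2, a repressor of the core loop, was at 10.71, 10.60 and 10.99 against 9.90, 9.76 and 10.37 (0.76 ± 0.32). Dbp, an output gene of the clock, was at 12.49, 11.34 and 11.45 against 12.07, 13.18 and 12.97 (-0.98 ± 0.36), with overlap. Of 51 splicing factor genes 25 were higher (median -0.0025, range -0.13 to 0.072), and of 20 genes of steroid metabolism, which include Akr1c18, 11 were higher (median 0.02, range -0.24 to 0.1). Igf1, the growth factor gene, had a change of -0.18 with an interval from -0.69 to 0.33.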

How the data were processed

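Cochlear RNA of pooled mice was hybridised to 1-colour arrays as biotin-labelled cRNA after TRIzol extraction, per the labels' protocols. GCOS 1.3 is the software listed in the submitters' processing notes. How signals were computed and scaled, and any detection calls, were not found in the labels. Intensity was deposited on a linear scale for 45037 probe sets. The platform annotation gives 1 symbol to 34945 of them, several to 932 and none to 9160, and gene IDs led to current RefSeq symbols for 34741 (GRCm38.p6).

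Values were transformed to log2(signal + 16), which understates changes of dim probe sets, quantile normalised over all 9 arrays and filtered at the 40th percentile of mean signal, leaving 27022 probe sets. Group means were fitted on all 9 arrays in limma 3.58.1 under R 4.3.3 (eBayes with a variance trend), and the contrast MC minus YC was taken; intervals and SE come from that fit. Precision is limited by 3 pools per group. The p-values, SE and intervals measure the spread between pools of all 3 groups, the less variable CR pools included. The fit was tested on simulated data of 27022 probe sets, with 50 changed at each of 4 sizes. At an adjusted p under 0.05 it recovered 8% of changes of 1 log2 unit and 36% of those of 2. For changes of 3 and 4 units the shares were 60% and 86%, and 3 unchanged probe sets were called. The simulated noise was independent and had 1 spread per probe set, averaged over the 3 groups. In the data the median SD was 0.569 in young controls, 0.442 in older controls and 0.21 in CR. The recovered shares may therefore overstate what this contrast could find. Lists are described by counts and medians, without a set test. Named genes were the 12 with the smallest p and no overlap per direction, up to 10 per direction whose probe sets all separated the groups, list members with the smallest p or largest change, and a fixed set. Members, lists and rules were chosen with earlier results of these data known. The alternatives were another pseudocount, filter, centring or normalisation, another probe set or the mean per gene, no variance trend, array weights, the controls alone, a replicate block, array class (median signal up to 626.6 or from 842.4) and each control array left out.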

Additional observations from a re-analysis of the deposited data

How the results depend on the processing

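No probe set was called under any of the 17 alternatives, where the smallest adjusted p from limma ranged from 0.166 to 1. At an unadjusted p under 0.05, no filter on signal gave 1955 probe sets (860 higher, 1095 lower) and a filter at the 60th percentile 497 (228 and 269), over more and fewer probe sets. Array weights gave 417 (182 and 235), the controls fitted alone 356 (180 and 176) and array class as a term 1566 (966 and 600). Median centring gave 158 higher and the table as deposited 333 lower. Leaving out each control array gave 973 to 2696 in all, 306 to 1233 higher and 472 to 1463 lower. The cause was not tested. Array class and leaving out young control 1 give nearly the same estimate, since among the controls young control 1 alone is in the low class.

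The replicate numbers did not pair the arrays: deviations of same-numbered arrays correlated at 0.021, -0.29 and -0.135, and 0 of 6 arrays correlated best with their own number. With the replicate block 0 probe sets were called and 841 had an unadjusted p under 0.05 (347 higher, 494 lower).

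Single genes were followed by the same probe set throughout. Other probe sets are given in the report for some genes only, so a gene shown without them may still have others. None of the 24 leading genes turned sign, but 8 of them passed the 60th percentile filter and 18 that of the controls alone, and leaving out an array cannot turn genes chosen for not overlapping. Of the other named genes, 11 turned sign in at least 1 alternative run for them. With median centring the changes were -0.0742 for Sod2, -0.0747 for Gjb2, -0.0492 for Gjb6, -0.269 for Slc26a4, -0.137 for Coch, -0.217 for Otos and -0.0427 for Mbp. In the table as deposited they were -0.0559 for Slc26a4 and -0.0042 for Otos. With array weights they were 0.0382 for Prdx3, -0.199 for Slc26a4 and -0.141 for Otos, and with array class 0.0337 for Cat, 0.0406 for Prdx3 and 0.025 for Cdkn1a. Leaving out each control array in turn gave -0.122 to 0.858 for Bak1, -0.233 to 0.261 for Cat, -0.105 to 0.105 for Prdx3, -0.194 to 0.0237 for Cdkn1a, -0.0496 to 0.471 for Gjb6, -0.212 to 0.261 for Slc26a4, -0.158 to 0.25 for Coch and -0.233 to 0.244 for Otos. Signal over background limits the dim genes, and 3 arrays a group limit all.

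List medians, set against that of all genes, moved by more than the spread between arrays in 45 cases, and 696 did not; the reported value stands in brackets. With median centring and in the table as deposited the medians were 0.141 for endothelial (0.0104), 0.0416 for mitochondrial redox (0.119), 0.11 for clock (0.0094), 0.0711 for glutamate synapse (-0.0379) and -0.113 for splicing (-0.03) genes. With array class they were 0.232 for supporting cell (0.0222), 0.145 for fibrocyte (0.0155), 0.0423 for mitochondrial redox, 0.0216 for pro-apoptotic (-0.0342) and 0.115 for clock genes. With array weights they were 0.0368 for pro-apoptotic, -0.23 for complement (-0.0093), -0.171 for p53 (-0.058) and -0.0846 for steroid (-0.0032) genes. The 60th percentile filter gave 0.238 for T and NK cell (0.0183), -0.101 for pro-apoptotic and 0.135 for steroid genes, and no filter -0.0933 for pro-apoptotic genes. The mean of all probe sets gave 0.145 for pro-apoptotic genes, and the probe set with the smallest SE 0.0765 for pro-apoptotic and 0.108 for steroid genes. Leaving out each control array in turn gave -0.299 to 0.223 for T and NK cell, -0.0203 to 0.152 for B cell, -0.0456 to 0.159 for clock, 0.0095 to 0.179 for mitochondrial redox, -0.129 to 0.059 for pro-apoptotic, -0.226 to 0.0827 for p53, -0.045 to 0.154 for deafness, -0.107 to 0.145 for fibrocyte, -0.249 to 0.166 for complement, 0.0313 to 0.248 for neurotrophin and -0.175 to 0.0428 for steroid genes.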
